A study of Mus musculus with 4 samples.

Results

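The collagen and laminin chains of the mouse retina were examined at E13.5 (day of embryonic development). Members were the gene IDs named as collagen alpha chains (Col, a number, a, a number) or as laminin alpha, beta or gamma chains (Lama, Lamb or Lamc and a number). This gave 55 genes of 25239 listed, 44 collagen and 11 laminin chains. The data are RNA sequencing of dissected retina in 2 libraries of genotype control and 2 libraries of genotype Isl1cKO, all at E13.5. The protein made by Isl1 is a transcription factor of the LIM-homeodomain class, and the question was what its loss does to RNA levels in the retina. The sources used here name neither the alleles of the controls nor the promoter that drives deletion, and do not say whether retinas of several embryos were pooled.

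Collagens are trimers of alpha chains wound into a triple helix. Fibrillar collagens assemble into banded fibrils, collagen IV forms the covalently linked sheet of basement membranes, and laminins, trimers of an alpha, a beta and a gamma chain, form the cell-bound layer of the same sheet. In the eye, collagens II, IX, V and XI make up the fibrils of the vitreous, while the inner limiting membrane, on which ganglion cell axons grow, is a laminin and collagen IV basement membrane. The chains were grouped as 11 fibrillar collagens and 17 basement membrane chains (6 of collagen IV and 11 of laminin). The other 27 are fibril-associated, beaded filament, short-chain network, anchoring, transmembrane and multiplexin collagens and Col26a1.

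Levels are given in TPM, a transcript abundance that the authors scaled to transcript length and to a fixed sum per library, so that levels of different genes can be set side by side. Fold changes are differences of log2(TPM + 1) for the libraries labelled Isl1cKO minus control, fitted across all tested genes with limma and given with the standard error (SE) and a 95% interval. Adjusted p-values are Benjamini-Hochberg values over all 13984 genes that reached 1 TPM in at least 2 libraries, with a threshold of 0.05. Nothing in the labels ties the replicates to separate litters or animals, so the p-values measure only the spread between these libraries. For the control pair that spread may be technical. The Isl1cKO replicates 1 and 2 had Xist, a sex-linked RNA, at 287 and 0.501 TPM, so they are not repeats of the same RNA.

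Isl1 itself was not lower in the libraries labelled Isl1cKO. It stood at 242 and 201 TPM in control and at 321 and 223 TPM under the label Isl1cKO, and the groups overlapped. The log2 fold change was 0.28 (SE 0.21, adjusted p 0.683 in limma, n = 2 each). Each gene has 1 value here, which cannot show whether part of the gene was deleted. Every direction below rests on the labels. Retinal progenitor markers (Fgf15, Ccnd1 and 8 others) summed to 6384 and 5794 TPM in control and to 4795 and 5199 TPM under the label Isl1cKO. Fgf15 stood at 2012 and 1816 TPM and at 1521 and 1473 TPM, and Ccnd1 at 1944 and 1498 TPM and at 848 and 961 TPM. Of the 10 markers, 5 had a fold change above 0, against 36.2% of all tested genes. Aligned sequence, derived from coverage and FPKM, was 12.6 to 14.3 gigabases per library. The number of reads is unknown, and no counting interval is given. Differences between single libraries touch some results. Of 10 endothelial markers, control replicate 1 had the highest value in 9 and Isl1cKO replicate 2 the lowest in 8. Isl1cKO replicate 2 also had Xist at 0.501 TPM, against 209 to 287 TPM in the other libraries. In bulk tissue, fewer cells of a type and less RNA per cell cannot be told apart.

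Promoter sequence is shown for the chains with the largest positive fold changes and with the largest negative one, as far as the RefSeq table held a window (GRCm38.p6; 40 of the 55 chains matched). Each run is the sequence before an annotated start site, 5′ to 3′ on the gene's strand, cut so that it holds no annotated exon. Capitals mark, on either strand, the letters ACAANG (a SOX-type site), TAATTA (a homeodomain-type site), TATAAA or ATGCTAAT. Col9a1 has a window for each of 2 start sites, an upstream one and an internal one that opens a shorter transcript.
Col9a1 upstream, chr1:24177360-24177609, plus strand: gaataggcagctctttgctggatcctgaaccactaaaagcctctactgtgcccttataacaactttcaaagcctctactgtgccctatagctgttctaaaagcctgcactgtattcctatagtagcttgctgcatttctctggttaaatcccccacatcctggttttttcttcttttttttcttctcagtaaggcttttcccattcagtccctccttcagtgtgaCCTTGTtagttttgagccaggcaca
Col9a1 internal, chr1:24194953-24195186, plus strand: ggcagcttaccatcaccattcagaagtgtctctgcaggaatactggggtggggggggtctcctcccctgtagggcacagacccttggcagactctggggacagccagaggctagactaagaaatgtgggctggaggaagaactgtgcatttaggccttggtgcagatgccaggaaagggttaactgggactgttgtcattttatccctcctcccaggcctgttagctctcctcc
Col25a1, chr3:130180595-130180844, plus strand: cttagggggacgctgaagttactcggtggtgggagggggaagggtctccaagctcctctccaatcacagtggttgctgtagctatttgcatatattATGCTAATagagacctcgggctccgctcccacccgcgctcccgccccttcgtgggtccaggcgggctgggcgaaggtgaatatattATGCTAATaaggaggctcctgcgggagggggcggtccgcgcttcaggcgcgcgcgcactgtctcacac
Col3a1, chr1:45311288-45311537, plus strand: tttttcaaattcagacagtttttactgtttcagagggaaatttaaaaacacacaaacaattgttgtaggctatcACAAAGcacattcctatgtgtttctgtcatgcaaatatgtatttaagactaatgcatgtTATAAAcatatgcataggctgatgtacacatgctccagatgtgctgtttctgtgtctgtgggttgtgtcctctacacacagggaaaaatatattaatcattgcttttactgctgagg

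The upstream Col9a1 window holds 1 ACAANG match and the internal window none of the 4 motifs. The Col3a1 window holds 1 ACAANG and 1 TATAAA match. Col25a1 carries ATGCTAAT at both 154 and 68 bases before the start, a motif that was picked after its sequence had been read. Of 32851 windows of 250 bases before RefSeq starts, 36.3% hold ACAANG, 4.84% TAATTA, 12.4% TATAAA and 0.828% ATGCTAAT, and 4 windows hold ATGCTAAT more than once. The same shares over the 44 windows of collagen and laminin chains are 22.7%, 4.55%, 11.4% and 2.27%. Col11a2 has both of its TAATTA matches within 115 bases of the start. A match is a description of the letters, not of binding.

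No collagen or laminin chain differed between the groups past the threshold. Of the 55 chains, 31 passed the filter and were tested, and each of the 31 reached 1 TPM in at least 1 library of both groups. In limma 0 of the 31 had an adjusted p under 0.05, where 0.493% of all tested genes did (0.0286% higher and 0.465% lower), and the smallest adjusted p was 0.275 (Lama1). At an unadjusted p under 0.05 there were 4 of 31 chains (12.9%), against 12.1% of all tested genes. Lama1 and Col1a2 were the 2 with lower values in the libraries labelled Isl1cKO, beside 8.92% of all tested genes, and Col25a1 and Col2a1 the 2 with higher values, beside 3.20% of all. Of the 31, 25 had an absolute log2 fold change under 0.3, as did 84.6% of all tested genes, and 1 reached 0.5 (Col3a1), against 6.84% of all. The groups did not overlap in 15 of the 31 chains (48.4%), 6 of them higher and 9 lower, and in 44.9% of all tested genes (14.9% higher, 30.0% lower). A fold change above 0 was found in 17 of the 31 (54.8%) and in 36.2% of all tested genes. The median log2 fold change was 0.02 over the 31 chains and -0.05 over all tested genes. The shares called and separated lie near those of all genes and are no result about the family.

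**Figure D1:**
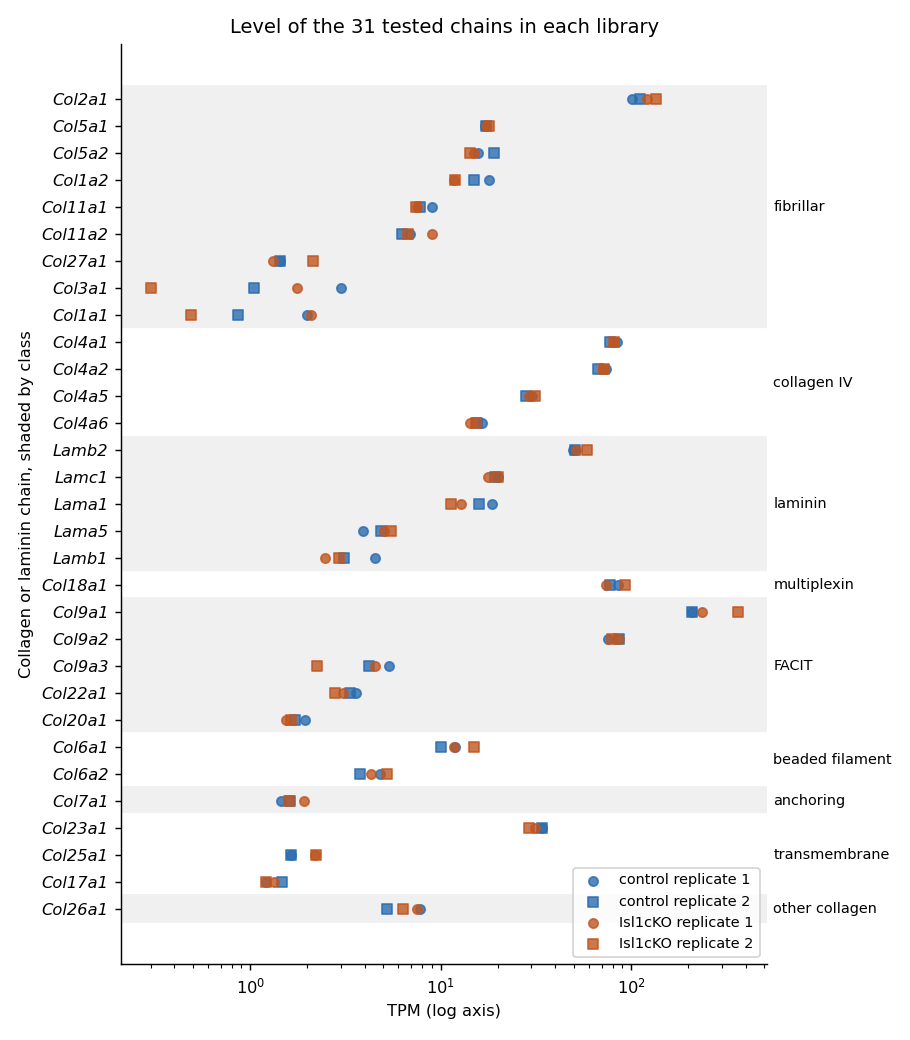
TPM (log axis) of the 31 tested chains in each of the 4 libraries, with chains grouped by class and ordered by mean level. Blue marks control and orange the libraries labelled Isl1cKO (circle, replicate 1; square, replicate 2); the 7 chains with a mean of at least 50 TPM are Col9a1, Col2a1, Col18a1, Col9a2, Col4a1, Col4a2 and Lamb2, and the widest spread on this axis is in Col3a1 and Col1a1.

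**Figure D2:**
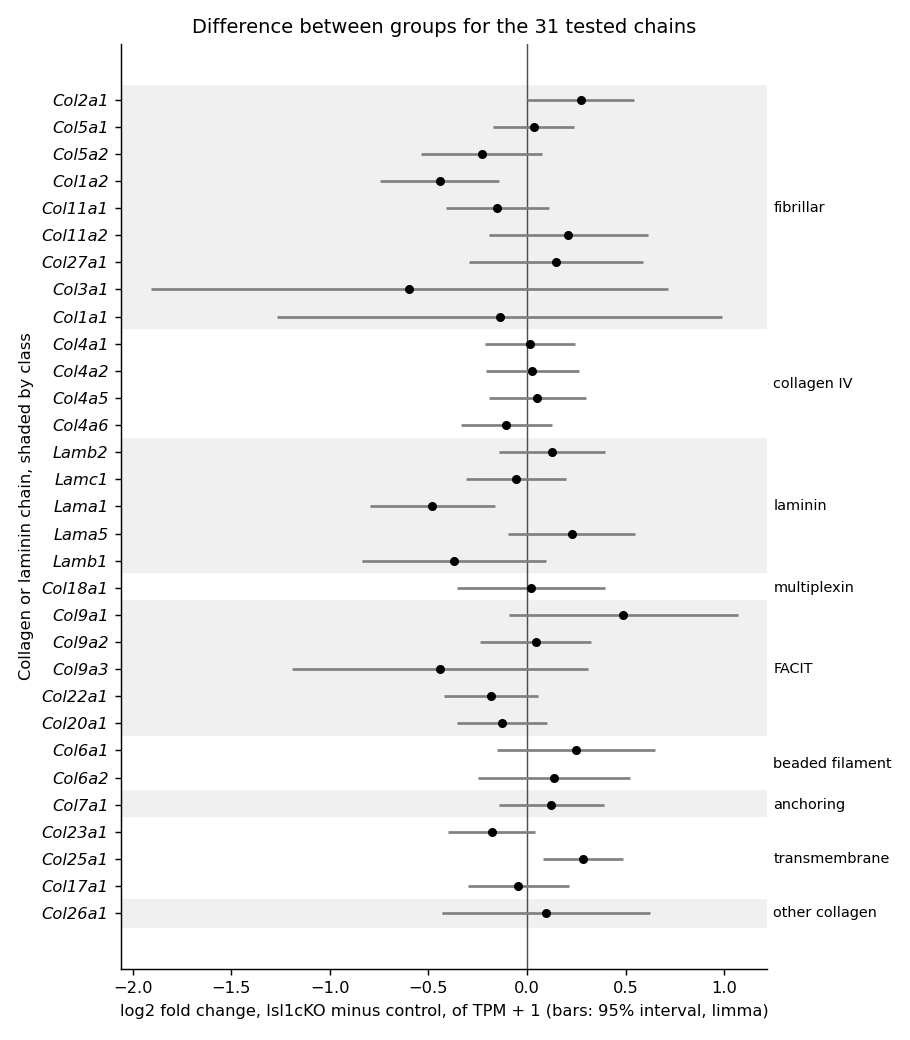
log2 fold change of TPM + 1, Isl1cKO minus control, for the 31 tested chains, with the 95% interval from limma (n = 2 libraries per group). The intervals of Lama1, Col1a2, Col25a1 and Col2a1 exclude 0 before adjustment, and those of Col3a1 and Col1a1 are the widest.

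The fibrillar collagens were led by collagen II. Col2a1 (chr15:97975602-98004724, on the minus strand), the single chain of the homotrimer that forms the core fibril of vitreous and cartilage, stood at 101 and 111 TPM in control and at 121 and 136 TPM under the label Isl1cKO. Both values labelled Isl1cKO lay above both controls. The means were 106 ± 6.67 and 129 ± 10.1 TPM (SD, n = 2 each), with a log2 fold change of 0.27 (SE 0.10, interval 0.00130 to 0.54) and an adjusted p of 0.412 in limma. Leaving out Isl1cKO replicate 2 gave 0.19, and leaving out Isl1cKO replicate 1 gave 0.35.

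The partner chains of collagen II fibrils did not share one direction. Col11a1, an alpha chain of collagen XI, which lies inside those fibrils, stood at 8.996 and 7.81 TPM in control and at 7.48 and 7.42 TPM under the label Isl1cKO. Col11a2, its partner chain, stood at 6.91 and 6.28 TPM and at 8.98 and 6.71 TPM. Neither passed (adjusted p 0.628 and 0.669 in limma). The ratio of Col11a1 to Col11a2 was 1.30 and 1.24 in control and 0.833 and 1.11 in the libraries labelled Isl1cKO. Col5a1 and Col5a2, the chains of collagen V, which starts fibrils and limits their width, stood at similar levels of 17.1 to 17.9 TPM and 14.3 to 19.0 TPM. Col5a1 had a log2 fold change of 0.03 (interval -0.17 to 0.24) and Col5a2 of -0.23 (interval -0.54 to 0.08), and their ratio went from 1.09 and 0.909 to 1.16 and 1.25.

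Collagen I RNA was mostly that of Col1a2, although the usual trimer takes 2 Col1a1 chains for 1 Col1a2 chain. Col1a2 (chr6:4505618-4541543, plus strand) stood at 18.0 and 15.0 TPM in control and at 11.8 and 11.9 TPM under the label Isl1cKO, without overlap. The log2 fold change was -0.44 (SE 0.11, interval -0.74 to -0.14), with an unadjusted p of 0.0142 and an adjusted p of 0.285 in limma. Col1a1, which supplies the other chain type of that trimer, stood at only 1.98, 0.864, 2.08 and 0.491 TPM in control replicates 1 and 2 and Isl1cKO replicates 1 and 2. The TPM of Col1a2 was thus between 5.67 and 24.2 times that of Col1a1. The 2 chains did not rank the libraries alike, since Col1a1 was high in both replicates numbered 1, and Col1a2 was high in both controls.

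Col3a1, the homotrimeric collagen of loose connective tissue and vessel walls, had the largest negative fold change of the tested chains. It stood at 3.01 and 1.04 TPM in control and at 1.75 and 0.3002 TPM under the label Isl1cKO, and the groups overlapped. The log2 fold change was -0.60 (SE 0.49, interval -1.91 to 0.72) with an adjusted p of 0.707 in limma. The value was -1.13 at a pseudocount of 0.1 and -0.33 on FPKM. Leaving out Isl1cKO replicate 2 gave -0.06, and leaving out Isl1cKO replicate 1 gave -1.14. Of 16 fibril-associated matrix genes, 2 ranked the libraries in the order of Col3a1, both small proteoglycans of connective tissue. Dcn (decorin) stood at 1.38, 0.974, 1.26 and 0.494 TPM and Lum (lumican) at 0.994, 0.559, 0.698 and 0.174 TPM, in the order control 1, control 2, Isl1cKO 1, Isl1cKO 2. Other small proteoglycans ranked them otherwise, with Bgn (biglycan) at 1.03, 0.772, 0.502 and 0.162 TPM and Aspn (asporin) at 0.113, 0.0195, 0.236 and 0.437 TPM, highest in Isl1cKO 2. Of the 13 periocular mesenchyme markers 0 were listed at 0 in every library, and they summed to 26.8 to 39.3 TPM. Foxd1, also a gene of the temporal retina, made up 75.1% of the sum. Eya1 came next, at 4.69 and 3.86 TPM in control and at 2.47 and 2.30 TPM under the label Isl1cKO. The part of such cells in the Col3a1 values was not tested.

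The remaining fibrillar chains were low. Col27a1 ranged from 1.32 to 2.14 TPM over the libraries. Col24a1, the chain just outside the filter, had a second highest value of 0.858 TPM, and Col5a3 reached 0.293 TPM at most. Just inside the filter was Col17a1, with a second highest value of 1.34 TPM.

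**Figure D3:**
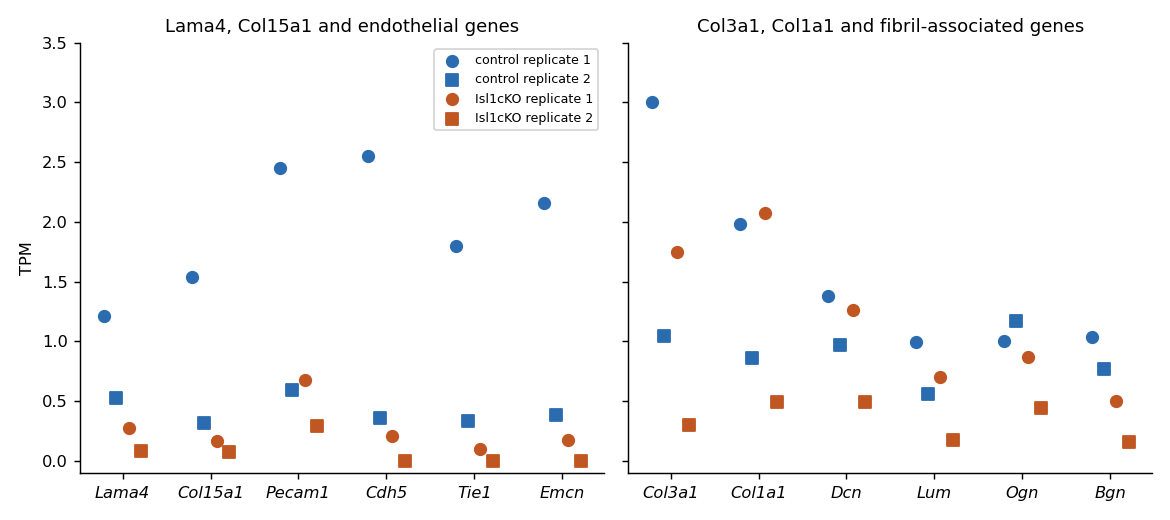
TPM (linear axis) in each library of Lama4 and Col15a1 beside 4 of 10 endothelial markers (left) and of Col3a1 and Col1a1 beside 4 of 16 fibril-associated matrix genes (right), picked after their values were seen. Control replicate 1 is highest for all 6 genes on the left, and Isl1cKO replicate 2 is lowest for all 12 genes shown. Over the full lists, Isl1cKO replicate 2 is lowest in 8 of 10 endothelial markers and in only 8 of 16 fibril-associated genes. Ramp2, Plvap and Aspn, which are not plotted, are among the exceptions.

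Collagen IV was the most even group. Col4a1 (chr8:11198423-11312826, read from the minus strand) was measured at 83.9 and 77.2 TPM in control and at 81.4 and 81.5 TPM under the label Isl1cKO. Col4a2, which joins it in the most widespread collagen IV trimer, stood at 73.6 and 66.8 TPM and at 71.2 and 71.7 TPM. Their log2 fold changes were 0.02 (interval -0.21 to 0.25) and 0.03 (interval -0.21 to 0.26), so that fold changes from 0.864 to 1.20 lie within the intervals. The start sites of this pair lie on opposite strands 21 bases apart, and the ratio of Col4a1 to Col4a2 was 1.14, 1.16, 1.14 and 1.14 in the 4 libraries. The 2 annotated genes overlap by 22 bases, and use of strand in the authors' counting is not stated.

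The X-linked pair, Col4a5 and Col4a6, was expressed at lower levels. Col4a5 stood at 30.2 and 28.1 TPM in control and at 29.0 and 31.5 TPM under the label Isl1cKO, and Col4a6 at 16.5 and 15.6 TPM and at 14.3 and 15.4 TPM. Neither passed (log2 fold changes of 0.05 and -0.10). Their ratio was 1.83 and 1.80 in control and 2.03 and 2.05 in the libraries labelled Isl1cKO, which do not overlap. With 2 libraries per group such non-overlap is common. It held for 44.9% of all tested genes, and no share was taken over ratios. The library with Xist at 0.501 TPM did not stand apart in either gene. Col4a3 and Col4a4, which with Col4a5 form the trimer of the mature kidney filter, stayed at or under 0.443 and 0.188 TPM in every library.

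Among the laminins, the alpha chains differed in direction and the gamma chain stayed level. Lama1 (chr17:67697265-67822645, plus strand), the alpha chain of the first embryonic basement membranes and of the inner limiting membrane, stood at 18.7 and 15.8 TPM in control. In the libraries labelled Isl1cKO it was lower, at 12.8 and 11.4 TPM, without overlap. The means were 17.3 ± 2.02 and 12.1 ± 0.997 TPM (SD, n = 2 each), with a log2 fold change of -0.48 (SE 0.12, interval -0.80 to -0.16). The unadjusted p was 0.0125 and the adjusted p 0.275 in limma. Lens markers, which the lens epithelium and fibres express, summed to 250.4 and 308 TPM in control and to 14.7 and 10.9 TPM under the label Isl1cKO. Of 15 tested, 10 passed in limma, all lower, against 0.465% of all tested genes. Cryaa and Cryba1, the most abundant, were among them. Several of the 10, such as Cryba1 (0.792 and 0.376 TPM under the label Isl1cKO), reached 1 TPM only in control. These passed the filter through the group where they are high and could only be lower, so the count is no independent support. The part of lens cells in the Lama1 values was not tested.

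Lama5, the alpha chain of many mature epithelial and vascular basement membranes, stood at 3.91 and 4.87 TPM in control and at 5.06 and 5.51 TPM under the label Isl1cKO. Its log2 fold change was 0.23 (interval -0.09 to 0.55), not past the threshold. The ratio of Lama1 to Lama5 was 4.78 and 3.25 in control and 2.52 and 2.06 in the libraries labelled Isl1cKO, without overlap. Of all tested genes 44.9% did not overlap, but that is a share of single genes, and no share was taken over ratios. The ratio of Lama1 to Lama5 was read after the values of both chains had been seen.

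Of the beta chains, Lamb2 exceeded Lamb1 in every library. Lamb2, the beta chain of the synaptic and retinal laminins, stood at 49.7 and 50.9 TPM in control and at 51.3 and 58.9 TPM under the label Isl1cKO. Lamb1, the other main beta chain, stood at 4.53 and 3.10 TPM and at 2.46 and 2.93 TPM. Their ratio was 11.0 and 16.4 in control and 20.9 and 20.1 in the libraries labelled Isl1cKO. Neither chain passed (log2 fold changes of 0.13 and -0.37, adjusted p 0.700 and 0.498 in limma). Lamc1, the gamma chain of nearly all laminins of this stage, stood at 20.0 and 19.3 TPM and at 17.8 and 20.0 TPM, a log2 fold change of -0.06 (interval -0.31 to 0.20). Intervals within 1.5-fold in both directions were found for 7 of the 9 tested basement membrane chains, all but Lama1 and Lamb1, and for 20 of the 31 tested chains. These are intervals of TPM + 1, a scale that understates the change of low chains, so the counts do not bound their change in TPM.

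The other 6 laminin chains did not pass the filter. Lama3 and Lamb3, found in skin and other stratified epithelia, reached at most 0.357 and 0.145 TPM, and Lamc3 at most 0.0267 TPM. Lama2, the muscle and nerve alpha chain, stood at 0.852 and 0.742 TPM in control and at 0.693 and 0.488 TPM under the label Isl1cKO. Lama4, the alpha chain of endothelial basement membranes, stood at 1.21, 0.530, 0.273 and 0.0793 TPM in control 1, control 2, Isl1cKO 1 and Isl1cKO 2.

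Col15a1, a multiplexin of vessel and muscle basement membranes, gave the same order as Lama4, at 1.54, 0.320, 0.169 and 0.0728 TPM. Of the 10 endothelial markers 7 did so too, among them Cdh5 (VE-cadherin), Tie1 and Emcn (endomucin). Cdh5 stood at 2.55, 0.357, 0.211 and 0 TPM, Tie1 at 1.80, 0.336, 0.0960 and 0 TPM, and Emcn at 2.16, 0.383, 0.175 and 0 TPM. The other 3 ranked the libraries differently. Ramp2 stood at 1.93, 2.37, 1.82 and 3.46 TPM, Plvap at 1.64, 0.377, 0.794 and 0.946 TPM, and Pecam1 at 2.45, 0.592, 0.681 and 0.296 TPM. All 10 endothelial markers were listed above 0 in at least 1 library, and their sum went from 90.4 and 67.7 to 65.9 and 64.0 TPM. Kdr, which retinal progenitors also express, made up 82.8% of it. Cldn5, a tight junction gene, came next, at 7.20 and 5.36 TPM in control and at 4.81 and 3.38 TPM under the label Isl1cKO. The part of vessel cells in both chains was not tested.

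The other multiplexin, Col18a1, whose C-terminal fragment is endostatin and which anchors the vitreous to the inner limiting membrane, was abundant. It stood at 85.9 and 77.9 TPM in control and at 74.1 and 93.1 TPM under the label Isl1cKO, with a log2 fold change of 0.02 (interval -0.35 to 0.40).

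Fibrillar and basement membrane chains were then compared as classes, as a description with no test. The 11 fibrillar chains summed to 175 and 180.3 TPM in control and to 188 and 198 TPM under the label Isl1cKO, a log2 ratio of means of 0.12. The 17 basement membrane chains summed to 304 and 283 TPM and to 287 and 299.9 TPM, a log2 ratio of -0.000972. Fibrillar TPM per basement membrane TPM was therefore 0.577 and 0.636 in control and 0.654 and 0.660 in the libraries labelled Isl1cKO. The difference of this ratio was 0.12 on the log2 scale, beside a pooled SD between replicates of 0.07, and it was 0.05 without control replicate 1 and 0.19 without control replicate 2.

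The direction of the class comparison hung on 1 gene. Col2a1 made up 63.3% of fibrillar TPM, and without it the other 10 fibrillar chains summed to 74.0 and 69.5 TPM in control and to 66.6 and 62.4 TPM under the label Isl1cKO. The ratio to basement membrane chains was then 0.243 and 0.245 in control and 0.232 and 0.208 in the libraries labelled Isl1cKO, a log2 difference of -0.15. By median log2 fold change, the 9 tested fibrillar chains stood at -0.14 and the 9 tested basement membrane chains at 0.02, so that the median and the sum of the fibrillar class differ in sign. Without control replicate 1 the fibrillar median was 0.03.

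**Figure D4:**
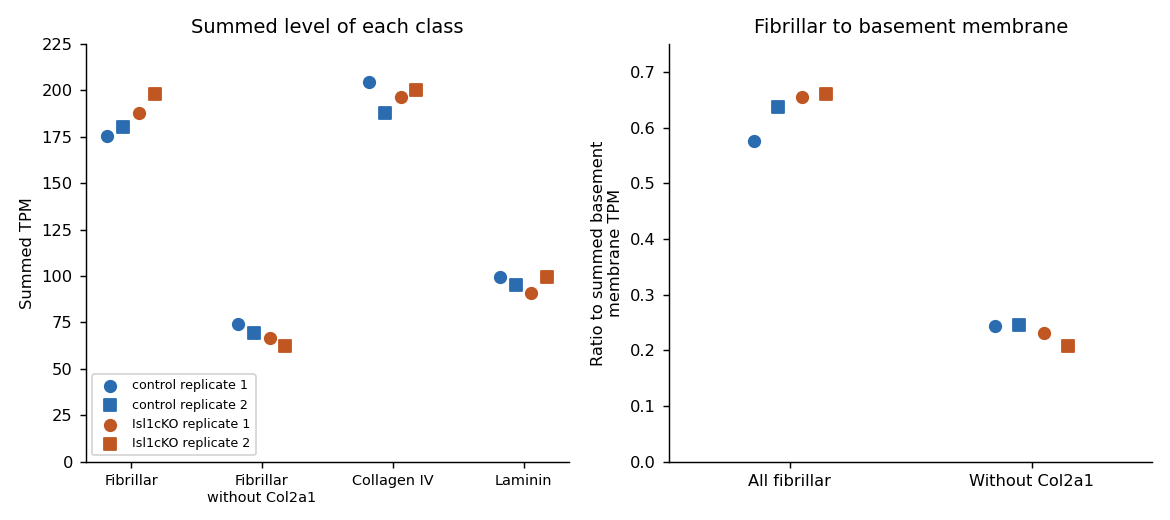
Left, summed TPM per library of the 11 fibrillar chains, the 10 without Col2a1, the 6 collagen IV chains and the 11 laminin chains; right, fibrillar TPM per basement membrane TPM with and without Col2a1. With Col2a1 the libraries labelled Isl1cKO lie at 0.654 and 0.660, above both controls, and without it at 0.232 and 0.208, below both controls.

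Collagen IX, which coats collagen II fibrils, held the most abundant chain of all. Col9a1 (chr1:24177610-24252738, plus strand) stood at 208 and 209.6 TPM in control and at 237 and 362 TPM under the label Isl1cKO. Both values labelled Isl1cKO lay above both controls, which differed by little, and Isl1cKO replicate 2 lay far above replicate 1. The log2 fold change was 0.49 (SE 0.22, interval -0.09 to 1.07) with an adjusted p of 0.480 in limma. Leaving out Isl1cKO replicate 2 gave 0.18, and leaving out Isl1cKO replicate 1 gave 0.79. The tables give 1 value per gene, so the upstream and the internal start shown above cannot be told apart.

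Its partner chains did not follow. Col9a2 stood at 75.7 and 86.2 TPM in control and at 86.9 and 79.8 TPM under the label Isl1cKO. Col9a3, the chain that completes the trimer, stood at only 5.34 and 4.23 TPM and at 4.52 and 2.26 TPM. The ratio of Col9a1 to Col9a3 was 39.0, 49.6, 52.5 and 160.5 in control 1, control 2, Isl1cKO 1 and Isl1cKO 2, although the trimer takes 1 chain of each kind. Neither partner passed, with log2 fold changes of 0.04 and -0.44 (adjusted p 0.905 and 0.624 in limma).

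The other fibril-associated chains were lower in level. Col22a1, a collagen of tissue junctions, stood at 3.61 and 3.33 TPM in control and at 3.08 and 2.79 TPM under the label Isl1cKO. Col20a1 ranged from 1.55 to 1.93 TPM. Col12a1, Col14a1, Col16a1 and Col19a1 did not pass the filter, and the highest of them, Col16a1, reached 0.782 TPM.

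**Figure D5:**
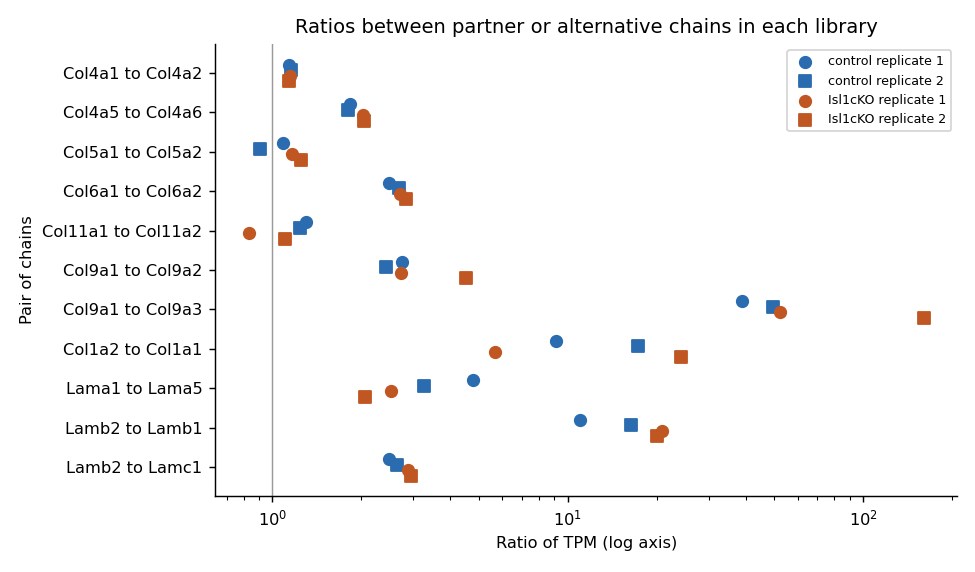
Ratio of TPM (log axis) between chains that share a trimer or stand in for each other, in each of the 4 libraries; the grey line marks equal levels. Col4a1 to Col4a2 stays between 1.14 and 1.16, while Col9a1 to Col9a3 spans 39.0 to 160.5 and Col1a2 to Col1a1 spans 5.67 to 24.2.

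Of the beaded filament chains, Col6a1 and Col6a2, which assemble with a further chain, stood at 10.1 to 14.9 TPM and 3.76 to 5.25 TPM. Col6a3, usually that further chain, reached 0.279 TPM at most, and Col6a4, Col6a5, Col6a6 and Col28a1 did not exceed 0.0834 TPM. Col6a1 had a log2 fold change of 0.25 (interval -0.15 to 0.65) and Col6a2 of 0.14 (interval -0.25 to 0.52).

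Among the transmembrane collagens, Col25a1 (chr3:130180845-130599883, plus strand), a neuronal membrane collagen, showed the closest replicates. It stood at 1.64 and 1.63 TPM in control and at 2.20 and 2.22 TPM under the label Isl1cKO. The log2 fold change was 0.28 (SE 0.08, interval 0.08 to 0.48), with an unadjusted p of 0.0167 and an adjusted p of 0.294 in limma. The unadjusted p was 0.142 with a mean-variance trend, which assumes a wider spread for low genes. Col23a1 stood at 34.1 TPM in each control and at 31.1 and 29.0 TPM under the label Isl1cKO, with a log2 fold change of -0.18 (interval -0.40 to 0.04). Col17a1, of hemidesmosomes, ranged from 1.21 to 1.47 TPM, and Col13a1 reached 0.891 TPM at most.

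Col7a1, which forms anchoring fibrils, ranged from 1.44 to 1.92 TPM, and Col26a1 from 5.21 to 7.82 TPM. The short-chain network collagens Col8a1 and Col8a2 reached 0.928 and 0.553 TPM at most. Col10a1, a growth plate collagen, was listed at 0 in both controls and at 0.0897 and 0.0377 TPM under the label Isl1cKO. That gene lies within the span of Nt5dc1, a gene on the other strand at a mean of 9.66 TPM. Over the 24 chains that were not tested, the highest value was 1.54 TPM, in Col15a1.

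Genes that make, bind or cut these chains were read from 5 lists. Of the 22 tested genes of collagen processing, 0 passed in limma and 3 (13.6%) had an unadjusted p under 0.05, near the 12.1% of all tested genes and no result about the list. The median log2 fold change was 0.14, against -0.05 over all tested genes. Serpinh1, the collagen chaperone, stood at 486 and 462 TPM in control and at 514 and 593 TPM under the label Isl1cKO (adjusted p 0.501), and Ppib, a prolyl isomerase of the same compartment, at 375 to 396 TPM. P4ha1, a prolyl hydroxylase subunit that stabilises the triple helix and a known hypoxia target, stood at 35.8 and 35.7 TPM and at 47.0 and 68.5 TPM (adjusted p 0.327). Loxl2, which cross-links collagen IV, stood at 30.2 and 26.5 TPM and at 35.0 and 45.3 TPM (adjusted p 0.358). Colgalt2, a collagen galactosyltransferase, stood at 5.33 and 5.27 TPM and at 3.58 and 4.13 TPM (adjusted p 0.272).

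Of the 14 tested basement membrane partners 0 passed in limma and 2 (14.3%) had an unadjusted p under 0.05, again near the 12.1% of all tested genes, and the median was -0.10. Agrn (agrin) and Sparc were the most abundant. Agrn stood at 207 and 199 TPM in control and at 181.5 and 143 TPM under the label Isl1cKO (adjusted p 0.454 in limma). Sparc stood at 189.5 and 197 TPM and at 220.1 and 215.5 TPM (adjusted p 0.488). Frem1, of the Fraser complex that ties epithelia to their basement membrane, stood at 8.48 and 5.19 TPM in control and at 1.68 and 0.871 TPM under the label Isl1cKO. Its log2 fold change of -1.78 (SE 0.28) had an adjusted p of 0.139 in limma.

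Of these 5 lists, that of matrix receptors held the only call, 1 of 9 tested genes, against 0.493% of all tested genes. In limma 3 of the 9 (33.3%) had an unadjusted p under 0.05, all lower, against 12.1% of all tested genes and 8.92% lower. Itga7, the alpha subunit of a laminin-binding integrin, fell from 2.77 and 2.53 TPM in control to 0.191 and 0.198 TPM in the libraries labelled Isl1cKO. Its log2 fold change was -1.61 (SE 0.08, interval -1.83 to -1.39) with an adjusted p of 0.0126 in limma. Itga7 reached 1 TPM only in the control libraries, so it passed the filter through the group where it is high. A gene that passes in this way can only be lower, so the direction of the call is no independent support. The call was lost when any 1 library was left out, with adjusted p-values from 0.0525 to 0.134 (log2 fold changes from -1.66 to -1.56). The gene was not tested under a filter of 5 TPM, and its log2 fold change was -3.22 at a pseudocount of 0.1 and -0.88 on FPKM. Of the 9 tested receptors 1 (11.1%) had a fold change above 0, against 36.2% of all tested genes, and the median was -0.18, against -0.05 over all tested genes. Itga6, another laminin-binding subunit, stood at 45.5 and 42.1 TPM and at 36.0 and 33.0 TPM, and Itgb1, the shared beta subunit, at 177 and 170.2 TPM and at 149 and 144 TPM. Neither passed (adjusted p 0.306 and 0.358). Ddr1, a collagen-binding receptor kinase, stood at 217 and 209 TPM and at 228 and 241 TPM.

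Of 7 tested fibril-associated matrix genes 0 passed in limma, 0 had an unadjusted p under 0.05 (12.1% of all tested genes did), and the median was 0.03. Mfap2, of microfibrils, was the most abundant at 123 to 160.1 TPM, followed by Fn1 (fibronectin) at 69.1 to 80.2 TPM. Of 12 tested proteases and inhibitors 0 passed in limma and 4 (33.3%) had an unadjusted p under 0.05, all lower, against 12.1% of all tested genes and 8.92% lower, and the median was -0.06. Adamts1, a secreted protease of proteoglycans, stood at 32.6 and 26.6 TPM in control and at 11.6 and 10.4 TPM under the label Isl1cKO, with an adjusted p of 0.0548 in limma. It passed under 6 of the 9 other settings, with an adjusted p of 0.0411 when libraries were rescaled by the median ratio, and in none of the 4 fits without a library. Mmp2, which cuts collagen IV and denatured collagens, stood at 10.2 and 7.85 TPM and at 5.15 and 5.01 TPM (adjusted p 0.191). Mmp14, its membrane-bound activator, stood at 99.8 to 105 TPM in all libraries, and Mmp11 at 22.8 to 25.3 TPM.

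The other marker lists give the tissue around these values. Pericyte markers summed to 46.5 to 50.6 TPM, of which Notch3, also a progenitor gene, made up 85.4%, with Pdgfrb at 2.83 to 3.80 TPM and Rgs5 at 1.66, 0.235, 0.0847 and 0 TPM over the libraries in the order above. Cartilage markers summed to 2.62 to 3.59 TPM, with Hapln1 and Chad the most abundant, Snorc listed at 0 in every library and Acan at or under 0.0256 TPM, beside the high levels of Col2a1 and Col9a1. Pigment epithelium markers summed to 51.6 and 41.2 TPM in control and to 40.6 and 30.0 TPM under the label Isl1cKO, with Pmel and Dct the most abundant and Rpe65 listed at 0 in every library. Red blood cell markers, led by Hba-a1 and Hbb-y, summed to 2903 and 4168 TPM and to 1418 and 204 TPM. Genes listed as retinal ganglion cell markers, led by Atoh7 and Gap43, summed to 4611 and 4428 TPM and to 2953 and 2780.0 TPM. Atoh7 made up 33.1% of that sum and did not share its direction, at 1025 and 1352 TPM and at 1058 and 1458 TPM. Of the 10 listed, 2 had a fold change above 0 (Atoh7 and Pou4f2), against 36.2% of all tested genes. Pou4f2 stood at 126 and 124 TPM in control and at 135 and 120 TPM under the label Isl1cKO. In limma 0 of 8 tested red blood cell markers and 0 of 10 ganglion cell markers passed over all genes. At an unadjusted p under 0.05 there were 4 and 7, all lower, against 12.1% of all tested genes and 8.92% lower.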

How the data were processed

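Per the labels' protocols, poly(A) RNA of frozen E13.5 retinae was selected and sequenced with a kit that keeps strand. The submitters' processing notes name Trimmomatic, FastQC, HISAT2, SAMtools and StringTie and the build mm10. Versions, the annotation and the strand setting are not given in the sources used here. Per the file headers, each library's deposited table gives coverage, FPKM and TPM per gene. Coverage signal, as deposited, is not scaled to depth and served only to derive aligned sequence. TPM, as deposited, is scaled to length and to a fixed sum. FPKM, as deposited, entered an alternative only.

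TPM of repeated rows was summed (171 to 234 gene IDs per library, no member among them). Genes with at least 1 TPM in at least 2 libraries were kept, and log2(TPM + 1) was fitted with lmFit and eBayes (constant prior) of limma 3.58.1 (R 4.3.3). The model held genotype alone, and tests were two-sided. This scale understates the change of low genes. The model was tested on simulated data. No set test was run.

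Members and lists were chosen with earlier results of these data known. Named were Isl1, in each class up to 4 chains of highest mean TPM, the 6 largest fold changes each way, assembly partners, the chains at the filter's edge, and for other lists genes past the threshold and the most abundant. Other names were chosen after their values were seen: Col20a1, Col27a1, the untested chains, Col25a1's motif, and the proteoglycan, endothelial, processing, partner, receptor and protease genes that are neither called nor among the most abundant. Pou4f2 was likewise named after its values were seen. Alternatives were other scalings, pseudocounts, filters, FPKM, a variance trend, the replicate block and leaving out each library. The values of 1 untested chain are not reported here.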

Additional observations from a re-analysis of the deposited data

How the results depend on the processing

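Under each of 9 alternatives and each left-out library 0 chains passed, and the smallest adjusted p was 0.0678 (Col9a1 without Isl1cKO replicate 1, on limma with a lone library assumed to vary like the other group). At an unadjusted p under 0.05 there were 4 of 31 chains, 3 at a pseudocount of 0.1, 6 of 55 with no filter, 3 of 20 at 5 TPM, 7 with the replicate block, 4 under each of the other 5 alternatives, and 0 to 8 across left-out libraries (0 without control replicate 1, 8 without Isl1cKO replicate 1). Outside the left-out libraries no tested chain changed sign, and 20 of 31 kept it throughout.

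All genes called numbered 69. The count was 15 with no filter beyond a value above 0, 44 at a pseudocount of 0.1, 110 with a mean-variance trend, 109 with FPKM, 265 with the replicate block and 10 to 37 across left-out libraries. No label names a shared litter, and differences between replicates correlated weakly between the groups (r = 0.126 across genes). With 2 pairs, it cannot be told whether the replicate numbers pair the samples. The block changed no chain's call, though the unadjusted p of Col3a1 in limma went from 0.286 to 0.00226 (adjusted p 0.0758 with the block). The fibrillar median of -0.14 was 0.0289 with no filter, where 11 chains enter, and -0.16 to 0.0281 across left-out libraries. The basement membrane median of 0.02 ranged from -0.04 to 0.08. The fibrillar summed log2 ratio of 0.12 was 0.17 when rescaled by the median ratio, by the upper quartile or with FPKM (0.171, 0.167 and 0.169) and -0.15 without Col2a1, and 0.08 to 0.155 across left-out libraries. That of basement membrane chains ranged from -0.05 to 0.05. The difference of the fibrillar to basement membrane ratio, 0.12, was -0.15 without Col2a1 and 0.0467 to 0.19 across left-out libraries.

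The chains that changed sign when a library was left out had log2 fold changes from -0.66 to 0.39 (Col1a1), -0.0490 to 0.14 (Col9a2), -0.12 to 0.0349 (Col17a1), -0.14 to 0.18 (Col18a1), -0.16 to 0.35 (Col26a1), -0.0426 to 0.0766 (Col4a1), -0.0423 to 0.10 (Col4a2), -0.00875 to 0.28 (Col6a2), -0.14 to 0.0258 (Lamc1), -0.0718 to 0.37 (Col27a1) and -0.00571 to 0.11 (Col4a5). The cause was not tested. Since the number of reads is unknown, genes listed at 0 carry no upper limit.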

Other observations

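Genes with a collagen-like domain that are not collagens by name were read as a further list of 30, written after the chains' values had been seen. Of these, 13 were tested, 0 passed in limma, 2 (15.4%) had an unadjusted p under 0.05, near the 12.1% of all tested genes, and the median log2 fold change was 0.05. C1qtnf12, a secreted C1q and TNF-related protein and the most abundant, stood at 19.7 and 20.2 TPM in control and at 26.8 and 23.9 TPM under the label Isl1cKO (log2 fold change 0.33, adjusted p 0.311 in limma). C1ql3, a synaptic C1q-like protein, stood at 2.01 and 1.69 TPM and at 1.35 and 0.824 TPM. Cthrc1 stood at 11.3, 11.8, 5.47 and 14.1 TPM in control 1, control 2, Isl1cKO 1 and Isl1cKO 2, so that the 2 libraries labelled Isl1cKO lay on either side of both controls. Colec10, Colq and Marco were listed at 0 in every library.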
